A study of Mus musculus with 32 samples.

Results

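DNA repair genes are described here across regenerating and developing mouse liver. They are the genes whose symbol in the array annotation begins with Fanc followed by a letter, or with Rad, Brca, Xrcc, Ercc or Msh followed by a digit. This name rule took 47 of the 18194 genes that have a probe set naming 1 gene. A probe set is the group of short oligonucleotides that reads 1 transcript on an Affymetrix mouse genome array. The 47 members had 111 probe sets, and the one of highest mean over the 32 arrays stood for its gene in the 35 members that had several.

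Fanconi anaemia proteins recognise crosslinks that tie the strands of DNA together, and hand the broken ends to the homologous recombination proteins, which copy the lost sequence from a sister chromatid. Other members join ends directly, cut out bulky or mispaired bases, or signal damage to the cell cycle through the checkpoint clamp. Many of these proteins also act at ordinary replication forks. In liver they are known for the response to oxidative and alkylating damage, and the embryonic liver is also where blood stem cells, which depend on the Fanconi pathway, expand.

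The embryonic groups were livers dissected from CD-1 mouse embryos at daily steps from 10.5 to 14.5 days post conception, and at 16.5 days. The hepatectomy groups were remnant livers of 10-week-old female CD-1 mice at hours 1, 2 and 6, at hours 12, 18, 24 and 30, and at hours 48 and 72 after removal of the 3 anterior lobes and the gallbladder. Normal liver of 10-week-old female CD-1 mice at time 0 was the control. Each of the 16 groups had 2 arrays, and each array held a pool of at least 3 tissues. A p-value rests on the spread between pools within groups, estimated for each gene over all 16 groups together. It does not measure the spread between animals, nor that of the compared groups alone. All values are deposited intensities on a linear scale, with a median of 74.6 over all probe sets and arrays. Intensities were compared only within a probe set, and tests used log2(intensity + 16) with limma and Benjamini-Hochberg adjustment over all 18194 genes. A gene was called at an adjusted p under 0.05. Folds are on that same scale and understate the change of dim genes.

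A few arrays stood apart. The log2 difference between the arrays of each group had an SD over all genes of 0.748 for 48 h, 0.535 for 10.5 days and 0.501 for 12 h, and of 0.287 to 0.436 in the other groups. The second 48 h array had a log2 ratio of the 3′ to the 5′ control probe set of 2.42 for Actb and 1.22 for Gapdh. The first 10.5 day array had 1.49 for Gapdh. The second 12 h array had 1.39 for Actb and 0.3 for Gapdh, against 0.57 and -0.29 on the first. At 2 h the arrays had 1.44 and 1.72 for Actb. The Actb ratio was 0.33 to 0.9 in embryonic and 0.57 to 2.42 in adult arrays. The Gapdh ratio was -0.43 to 1.49 and -0.44 to 1.22. The bearing of these ratios on the repair gene levels was not tested. In embryonic liver the summed level of 6 hepatocyte markers lay between 4976 and 23730, against 27020 to 54590 in the adult arrays. The summed level of the hepatoblast markers Afp and Dlk1 was 6846 to 10650 in embryonic liver and 33.4 to 88.4 in adult liver.

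Most of the repair genes were higher in embryonic liver than in normal adult liver. Of the 47 members, 29 were higher in the mean of the 6 embryonic stages than at time 0 (61.7%, against a background of 30.9% of all genes), 7 were lower (14.9%, against a background of 24.8%) and 11 were not called. Without the first 10.5 day array 38 members were called, in place of 36. The median log2 difference of the members was 0.72, and that of all genes was 0.02. The members that differed most were Brca1, the mitotic helicase Ercc6l, the cohesin subunit Rad21, the excision nuclease subunit Ercc1 and the mismatch sensor Msh6. Ercc1 held that place only on its brightest probe set, which can read other genes, and with such probe sets left out its log2 difference was 0.39. In 14 members each of the 12 embryonic arrays lay above each of the 20 adult arrays (29.8%, against a background of 15.4%). They were Brca1, Brca2, Ercc1, Ercc3, Ercc4, Ercc6l, Fanci, Msh6, Rad1, Rad21, Rad9a, Xrcc1, Xrcc5 and Xrcc6. Only Fancb and Rad54l2 lay below all adult arrays on all embryonic ones (4.26%, against a background of 7.63%). These are whole livers, so that fewer cells of a type and less RNA per cell cannot be told apart.

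**Figure D1:**
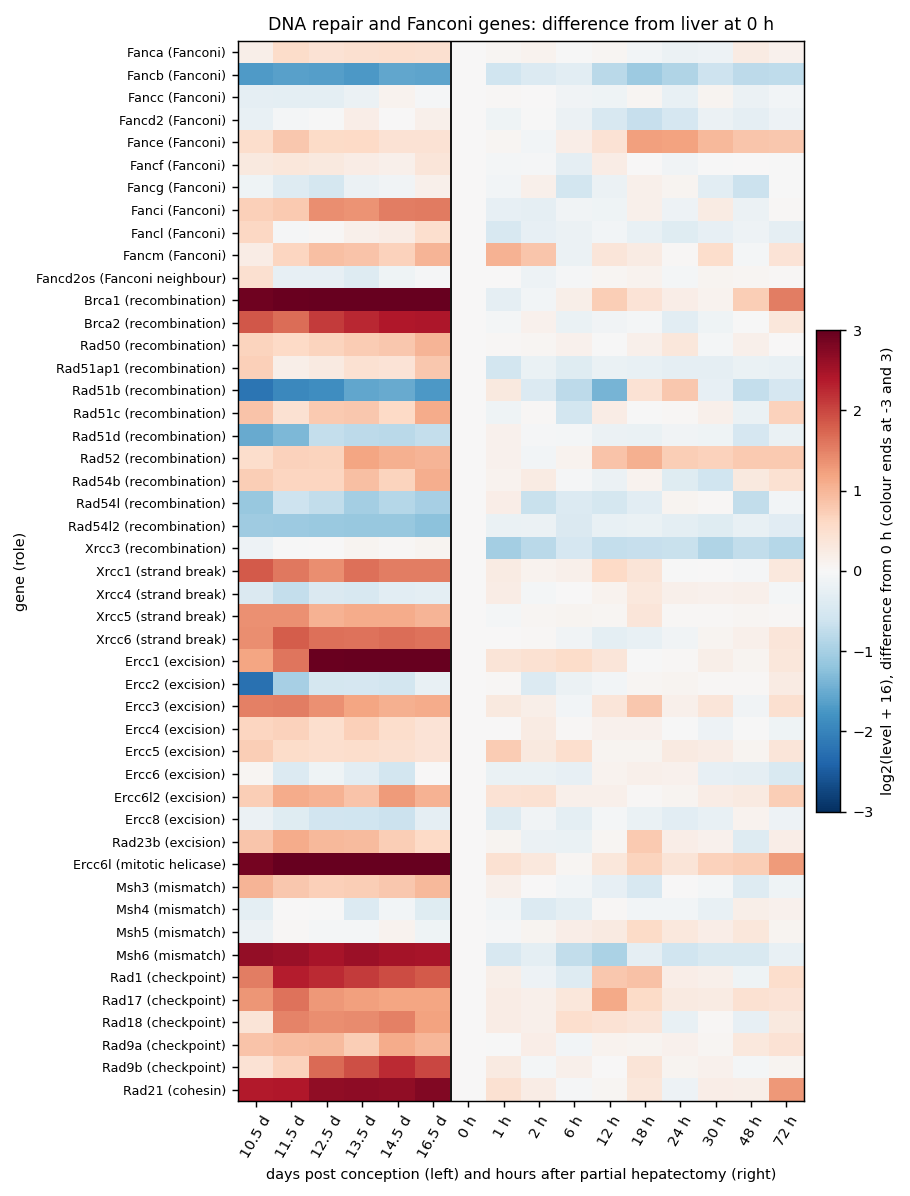
Difference of each of the 47 genes from normal liver at 0 h, as the difference of group means of log2(intensity + 16), with embryonic days on the left and hours after hepatectomy on the right (colour ends at -3 and 3). Brca1, Ercc6l and Msh6 are dark red at every embryonic stage, Ercc1 from 12.5 days, and in the adult columns the strongest reds are Brca1, Ercc6l and Rad21 at 72 h.

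The makeup of the tissue differed between the same groups. All 18 proliferation markers were higher in embryonic liver, with a median log2 difference of 5.02 from time 0. All 6 measured erythroid markers of 10 listed were higher as well. Their summed level was 2501 to 21830 in the embryonic arrays, with a median of 18710, and 607 to 1151 in the adult arrays. The 7 measured markers of blood progenitors and white cells summed to 962 to 3197 in embryonic and 466 to 730 in adult liver. Of these 7, 5 were higher than at time 0, 1 was lower and 1 was not called. The 4 Kupffer cell markers summed to 67.8 to 1419 in embryonic and 1039 to 3746 in adult liver, with 0 higher and 3 lower. The 3 stellate and mesenchyme markers summed to 467 to 1678 and 46.6 to 216, with 2 higher and 1 lower. The 3 endothelial markers summed to 212 to 540.5 and 290 to 754, with 1 higher and 1 lower. None of the erythroid markers was at 0 on the adult arrays, where the lowest, Slc4a1, read at least 11.8. The part of cycling cells and of blood cells in the higher repair gene levels was not tested.

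The promoters of the members are shown because the genes highest in the embryo include known targets of E2F, the factor family that turns on genes for DNA synthesis. RefSeq promoters of build GRCm38.p6, from 250 bases before to 50 after the start, were given for 38 members in 43 windows. They were searched on both strands for 4 E2F motifs (TTTCCCGC, TTTGGCGC, TTTCGCGC and TTTGCCGC), for the CCAAT box, and for TTTGAA, the element of cell cycle genes called CHR. An E2F motif stood in 8 of the 43 member windows (18.6%) and in 2.26% of all 32851 windows, or 2.85% of the windows of protein-coding genes. The CCAAT box stood in 55.8% of the member windows and in 37.4% of all windows. TTTGAA stood in 6.98% of the member windows and in 17.9% of all. The genes with an E2F motif were Brca2, Fancg, Msh3, Msh5, Msh6, Rad51c and Xrcc6, of which Fancg and Msh5 were called in no comparison. A match is a description of the letters and not a binding site. Brca1 and Rad52 are printed because they were called at 72 h after hepatectomy. Ercc6l and Rad21 were called then as well, but no promoter was given for them, so they were not searched. Brca2, Msh6 and Xrcc6 were picked after the search from the genes that hold an E2F motif and were higher in the embryo. Msh3 and Rad51c also met that description and are not printed. Capitals mark E2F motifs and CCAAT boxes in either orientation.
Brca1, chr11:101551906-101552205, minus strand: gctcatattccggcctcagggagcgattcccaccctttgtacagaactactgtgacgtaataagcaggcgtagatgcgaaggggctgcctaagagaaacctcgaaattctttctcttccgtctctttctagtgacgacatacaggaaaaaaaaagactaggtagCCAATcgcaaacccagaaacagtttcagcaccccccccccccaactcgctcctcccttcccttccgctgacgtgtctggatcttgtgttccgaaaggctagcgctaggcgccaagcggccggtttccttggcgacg
Brca2, chr5:150522371-150522670, plus strand: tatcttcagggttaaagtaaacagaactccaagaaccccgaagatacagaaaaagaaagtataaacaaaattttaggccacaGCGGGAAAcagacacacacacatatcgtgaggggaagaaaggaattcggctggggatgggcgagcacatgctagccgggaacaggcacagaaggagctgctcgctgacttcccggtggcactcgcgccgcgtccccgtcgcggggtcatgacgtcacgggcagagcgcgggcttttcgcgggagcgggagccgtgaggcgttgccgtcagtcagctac
Msh6, chr17:87974800-87975099, plus strand: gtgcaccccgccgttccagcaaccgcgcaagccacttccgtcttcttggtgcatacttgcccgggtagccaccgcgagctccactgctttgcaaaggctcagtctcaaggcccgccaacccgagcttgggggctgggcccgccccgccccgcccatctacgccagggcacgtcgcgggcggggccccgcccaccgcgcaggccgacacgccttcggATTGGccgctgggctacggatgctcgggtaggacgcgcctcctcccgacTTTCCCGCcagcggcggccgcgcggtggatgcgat
Xrcc6, chr15:82016119-82016418, plus strand: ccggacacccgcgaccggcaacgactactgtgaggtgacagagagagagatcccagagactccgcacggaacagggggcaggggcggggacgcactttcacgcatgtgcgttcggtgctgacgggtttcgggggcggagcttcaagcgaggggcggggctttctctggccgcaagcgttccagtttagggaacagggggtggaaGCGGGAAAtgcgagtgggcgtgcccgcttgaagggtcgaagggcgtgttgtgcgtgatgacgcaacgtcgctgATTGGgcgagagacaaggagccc
Rad52, chr6:119902448-119902747, plus strand: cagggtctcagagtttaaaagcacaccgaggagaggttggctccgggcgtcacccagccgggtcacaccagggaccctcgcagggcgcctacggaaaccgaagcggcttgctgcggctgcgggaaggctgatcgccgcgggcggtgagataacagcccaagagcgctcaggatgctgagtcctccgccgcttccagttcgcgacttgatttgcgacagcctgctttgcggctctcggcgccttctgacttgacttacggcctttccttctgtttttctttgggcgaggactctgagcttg
Relative to the annotated start, the E2F letters began at base -168 in Brca2, at base 16 in Msh6 and at base -46 in Xrcc6. The Rad52 window held none of the motifs.

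Of the 10 Fanconi genes, 5 were higher in embryonic liver than at time 0 (50%, against a background of 30.9%). In the same comparison 1 was lower (10%, against a background of 24.8%) and 4 were not called. Fanci, which pairs with Fancd2 as the ubiquitinated clamp on DNA, had the largest increase of the 10. It read 153 to 317 in the 12 embryonic arrays, with a median of 264, against 97.7 and 85.6 at time 0. All embryonic arrays lay above all adult ones, and the log2 difference from time 0 was 1.22 ± 0.17 (SE, adjusted p = 2.19e-06 by limma). Fancm, the translocase that anchors the core complex, was higher by 0.72 ± 0.16, Fance by 0.56 ± 0.19, Fanca by 0.44 ± 0.11 and Fancf by 0.28 ± 0.11. These last 3 encode core complex subunits. The Fance call was lost without either time 0 array, the Fancm call without the first, and the Fancf call in 10 of 45 alternative analyses.

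Fancb, another core subunit, went the other way. It read 32.2 to 43.8 in embryonic liver, with a median of 39.5, against 148 and 157 at time 0. The log2 difference was -1.63 ± 0.21 (adjusted p = 8.25e-07 by limma), although a second Fancb probe set differed in the opposite direction, as described further on. The clamp subunit Fancd2 read 143 to 210 in the embryonic arrays and 175 and 168 at time 0, with a log2 difference of 0.01 ± 0.12. Fancl, the ubiquitin ligase of the pathway, read 389 to 1126 in embryonic liver and 542 and 363 at time 0, and its highest value was on the first 10.5 day array. Fancc and Fancg, also of the core complex, differed by -0.16 ± 0.16 and -0.20 ± 0.20, and were called in no comparison here. Fancc read 112 to 202 in embryonic liver and 122 to 202 in adult liver, and Fancg 61.5 to 132 in embryonic liver and 37.1 to 137 in adult liver. Fancd2os, a gene that overlaps Fancd2 on the opposite strand, differed by -0.09 ± 0.14.

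Among the 12 genes of the recombination list, 6 were higher in embryonic liver than at time 0 (50%, against a background of 30.9%). In that comparison 4 were lower (33.3%, against a background of 24.8%) and 2 were not called. Brca1, a ubiquitin ligase that steers broken ends towards recombination, read 210 to 422 in the embryonic arrays, with a median of 335. At time 0 it read 17.9 and 13.8, and the highest adult array, at 72 h, read 81.6. The log2 difference was 3.35 ± 0.19 (adjusted p = 2.03e-12 by limma), the largest of the members. Brca2, which loads the recombinase onto single strands, read 196 to 384 in embryonic liver, with a median of 302, against 65.3 and 44.5 at time 0. Its log2 difference was 2.12 ± 0.14 (adjusted p = 2.94e-11).

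Rad52, which anneals single strands, was higher by 0.86 ± 0.15, Rad54b, a motor protein of the recombinase, by 0.78 ± 0.17, Rad51c, a paralog of the recombinase, by 0.77 ± 0.25, and Rad50, of the end-processing complex, by 0.75 ± 0.13. The Rad51c call was lost without the second time 0 array. Rad54b is dim, at 26.9 to 68.0 in the embryonic arrays and 19.8 and 15.6 at time 0. Of the other recombinase paralogs, Rad51b was lower, with a log2 difference of -1.80 ± 0.33, and so was Rad51d, with -0.98 ± 0.16. Rad51b read 50.1 to 98.6 in embryonic liver and 342 and 265 at time 0, and varied widely among adult arrays, between 67.4 and 591. Xrcc3, the last paralog measured, differed by 0.00 ± 0.21, with time 0 arrays as far apart as 269 and 121. Rad54l2, a chromatin helicase named for its likeness to the recombination motors, read 79.5 to 102 in embryonic liver and 181 and 243 at time 0. It did not overlap with any adult array. The motor protein gene Rad54l was lower, with a log2 difference of -0.89 ± 0.23 on its brightest probe set.

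Of the 4 genes for joining breaks, 3 were higher in embryonic liver than at time 0 (a background of 30.9%) and 1 was lower (a background of 24.8%). Xrcc6 and Xrcc5 encode the Ku subunits that cap broken ends. Xrcc6 read 262 to 378 in embryonic liver, with a median of 322, against 95.4 and 88.8 at time 0, a log2 difference of 1.63 ± 0.10 (adjusted p = 1.14e-11 by limma). Xrcc5 read 160 to 232 in embryonic liver and 91.3 and 61.9 at time 0, a difference of 1.17 ± 0.13. Xrcc1, the scaffold of single-strand break repair, differed by 1.59 ± 0.14. For all 3 genes the embryonic arrays lay above every adult array. Xrcc4, the partner of the end-joining ligase, was lower, with a log2 difference of -0.45 ± 0.15 (adjusted p = 0.013), and its call was lost without the first time 0 array (adjusted p = 0.223).

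In the excision repair list 6 of 9 genes were higher in embryonic liver than at time 0 (66.7%, against a background of 30.9%). Of the rest, 1 was lower (11.1%, against a background of 24.8%) and 2 were not called. Ercc1 and Ercc4 together form the nuclease that cuts on the 5′ side of a lesion. Ercc1 read 476 to 2406 in the embryonic arrays, with a median of 2126, and 240 and 236 at time 0 (log2 difference 2.54 ± 0.16, adjusted p = 1.81e-11 by limma). With probe sets that can read other genes left out, the Ercc1 difference was 0.39 (adjusted p = 0.0221), and its probe set 1445266_at differed by -1.44. Ercc4 read 94.2 to 136 in embryonic liver and 87.4 and 59.3 at time 0, and its log2 difference was 0.58 ± 0.13. Ercc5, the nuclease of the 3′ side, was higher by 0.53 ± 0.15. Both calls were lost without the second time 0 array. They were also lost with the mean of all probe sets, at 0.13 for Ercc4 and 0.01 for Ercc5.

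The helicases of the repair and transcription factor TFIIH diverged. Ercc3 read 164.5 to 251.1 in embryonic liver and 87.0 and 62.5 at time 0, a log2 difference of 1.30 ± 0.15 (adjusted p = 1.38e-07 by limma). Ercc2 read 9.14 to 323 in embryonic liver and 316 and 281 at time 0. Its difference of -0.84 ± 0.37 missed the threshold (adjusted p = 0.0603), and its lowest value, 9.14, was again on the first 10.5 day array, against 160 on the second. Rad23b, a partner of the lesion sensor Xpc, was higher by 0.87 ± 0.18 (-0.18 with probe sets that can read other genes left out) and Ercc6l2, a helicase of the same family as Ercc6, by 1.01 ± 0.21. Ercc8, which recruits repair to stalled transcription, was lower, with a log2 difference of -0.44 ± 0.16, a call lost without the first time 0 array. Its partner Ercc6 read -0.53 to 14.1 on the embryonic arrays and -2.14 to 21.3 on the adult ones and was one of the 3 dim members, with Msh4 and Rad54b, whose highest group mean did not exceed the overall median.

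Msh6 and Msh3, the alternative partners in the mismatch sensor, were both higher in embryonic liver. Msh6 read 405 to 508 in the embryonic arrays, with a median of 447, against 73.8 and 53.4 at time 0. The spread among the embryonic arrays was narrow, and the log2 difference was 2.54 ± 0.15 (adjusted p = 7.66e-12 by limma). Msh3 differed by 0.85 ± 0.27, with time 0 arrays at 138 and 49.8, and its call was lost without the second. Msh4 and Msh5, which act in meiosis, differed by -0.20 ± 0.33 and -0.05 ± 0.15. Msh5 read 39.5 to 67.1 in embryonic and 47.4 to 93.1 in adult liver, and Msh4 -5.00 to 24.3 in embryonic and 0.31 to 32.2 in adult liver.

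All 5 checkpoint and damage tolerance genes were higher in embryonic liver (a background of 30.9%), with a median log2 difference of 1.31. Rad9a, its paralog Rad9b, and Rad1 encode subunits of the checkpoint clamp, Rad17 encodes the clamp loader, and Rad18 encodes the ligase that marks stalled forks for bypass. Rad1 read 68.9 to 244 in embryonic liver, with a median of 178, and 31.8 and 27.5 at time 0 (log2 difference 2.01 ± 0.25, adjusted p = 5.18e-07 by limma). Rad17 read 236 to 355 in embryonic liver, with a median of 254, and 117 and 82.2 at time 0. Its difference was 1.31 ± 0.14, and 1 adult array, at 12 h, reached 267. Rad18 differed by 1.24 ± 0.21 and Rad9a by 0.93 ± 0.14, and Rad9b was 2.82-fold higher. Hus1, the remaining clamp subunit and not a member by name, was higher by 1.35 ± 0.11.

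Ercc6l and Rad21, which act on chromosomes in mitosis and interphase, were counted apart from the other roles. Ercc6l, a helicase that resolves thin DNA bridges at anaphase, read 158 to 247 in embryonic liver, with a median of 232, and 15.9 and 8.89 at time 0 (log2 difference 3.10 ± 0.17, adjusted p = 1.26e-12 by limma). Rad21, the cleavable subunit of cohesin, read 1627 to 2339 in embryonic liver, with a median of 2060, and 329 and 313 at time 0. Its difference was 2.60 ± 0.13 (adjusted p = 3.09e-13).

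**Figure D2:**
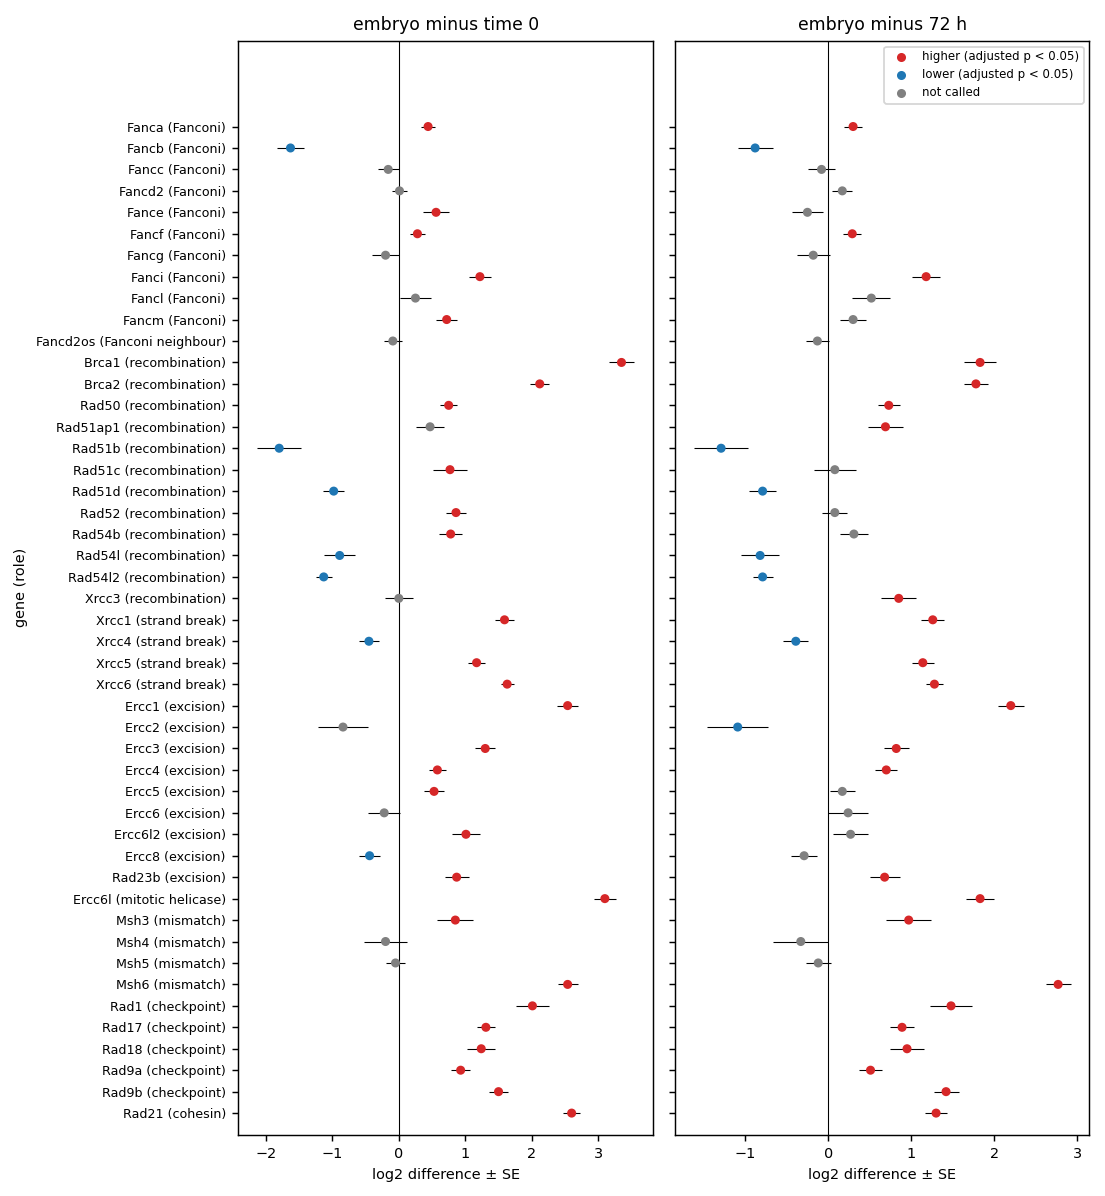
Log2 difference of the mean of 6 embryonic stages from time 0 (left) and from 72 h after hepatectomy (right) for each gene, with bars of 1 SE and colours for the call. Brca1 and Ercc6l differ by over 3 from time 0 and by 1.83 from 72 h, while Msh6 differs by 2.54 and 2.77.

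Set against the liver 72 h after hepatectomy, 24 members were higher in embryonic liver (a background of 28.6% of all genes) and 7 were lower (a background of 25.5%). Of the members, 22 were higher than both time 0 and 72 h (a background of 25.7%) and 6 were lower than both (a background of 20.2%). The 2 comparisons share the embryonic arrays. Brca1 differed by 1.83 ± 0.19 from 72 h, Ercc6l by 1.83 ± 0.17 and Rad21 by 1.30 ± 0.13, whereas Msh6 differed by 2.77 ± 0.15 and Ercc1 by 2.20 ± 0.16. The Ercc1 value was 0.54 with probe sets that can read other genes left out. With the mean of all its probe sets Rad21 differed from 72 h by 0.30 and was not called (adjusted p = 0.15 by limma). Rad52, called against time 0, differed from 72 h by 0.08 ± 0.15, and Fance by -0.25 ± 0.19. Xrcc3, at 0.00 against time 0, was higher than at 72 h by 0.85 ± 0.21 (adjusted p = 0.00191 by limma). Ercc2 was lower than at 72 h, with a log2 difference of -1.09 ± 0.37 (adjusted p = 0.0174), a call that was lost without the 10.5 day stage or either 72 h array. Leaving out the second 72 h array reduced the members called to 22, from 31.

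Within the embryonic series, 10 members rose with stage (21.3%, against a background of 16.4%) and 1 fell (2.13%, against a background of 11.5%) in a linear change per day. Ercc1 rose by 0.34 ± 0.03 on the log2 scale per day (adjusted p = 1.99e-08 by limma). Its arrays read 658 and 476 at 10.5 days, 837 and 688 at 11.5 days, 2123 and 1844 at 12.5 days, 2173 and 2162 at 13.5 days, 2201 and 2393 at 14.5 days, and 2129 and 2406 at 16.5 days. The level was low at the first 2 stages and level from 12.5 days on. With probe sets that can read other genes left out, the change per day of Ercc1 was 0.06.

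Rad9b, the clamp paralog, rose by 0.29 ± 0.03 per day (adjusted p = 5.10e-08 by limma). It read 164 and 184 at 10.5 days, 226 and 192 at 11.5 days, 498 and 383 at 12.5 days, 494 and 541 at 13.5 days, 604 and 690 at 14.5 days, and 576 and 507 at 16.5 days. Here too the step came between 11.5 and 12.5 days. Brca1 rose by 0.15 ± 0.04 per day (adjusted p = 0.00228), from arrays of 210 and 242 at 10.5 days up to 422 and 387 at 16.5 days. Brca2 rose by 0.12 ± 0.03 and Fanci by 0.15 ± 0.03. Fanci read 165.2 and 153 at 10.5 days and 317 and 281 at 16.5 days. Brca1, Brca2, Fanci and Rad9b kept this call in all 45 alternative analyses.

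The other rising members were less steady. Ercc2 rose by 0.27 ± 0.07 per day, Rad51d by 0.13 ± 0.03, Fancm by 0.10 ± 0.03, Rad52 by 0.09 ± 0.03 and Rad21 by 0.07 ± 0.02. All 5 calls were lost without the 10.5 day stage, which left 5 rising members and no falling one. Ercc3 fell by 0.08 per day (SE 0.03, adjusted p = 0.0321 by limma), from 241 and 240 at 10.5 days down to 196 and 164.5 at 16.5 days, and this call was lost without that stage as well. In the F test over the 6 stages 9 members differed (a background of 21.2%), a count that was 3 without the 10.5 day stage. All 6 erythroid markers rose over the same stages, with a median of 0.41 per day, and their part in these changes was not tested.

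**Figure D3:**
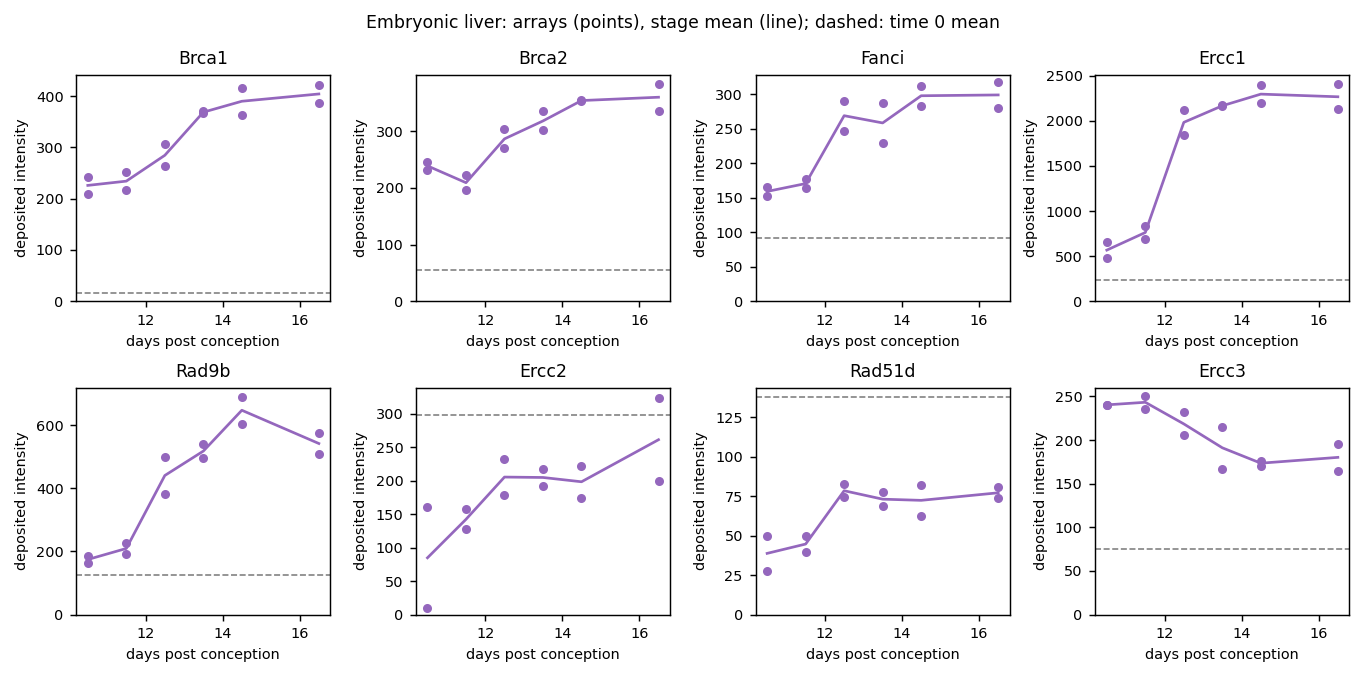
Intensity of 8 genes on each embryonic array against days post conception, with the line through stage means and the mean at time 0 dashed. Ercc1 and Rad9b step up between 11.5 and 12.5 days, the stage means of Ercc2 and Rad51d stay below the time 0 mean, and Ercc3 declines while staying above it.

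After hepatectomy the calls among the repair genes were spread over several times. In the F test over the 9 times, 14 of the 47 members differed from time 0 (29.8%, against a background of 18.2%), and 13 were called in at least 1 comparison of a time or phase (a background of 15.8%). All these comparisons share the same 2 time 0 arrays. In fits restricted to the arrays compared no member was called at any single time. At 72 h such a fit had 9 members at an unadjusted p under 0.05 (19.1%, against 12.1% of all genes). In it the adjusted p by limma of Brca1, Ercc6l and Rad21 was 0.0709, 0.112 and 0.11.

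At 72 h, 4 members were higher than at time 0 (8.51%, against a background of 2.83%) and 0 were lower (a background of 0.319%). By limma, 14 members had an unadjusted p under 0.05 at that time (29.8%, against 13.1% of all genes). Brca1 read 81.6 and 69.8 at 72 h, against 17.9 and 13.8 at time 0 and 7.41 to 47.7 in the 16 arrays from 1 to 48 h. Both 72 h arrays lay above every other adult array, and the log2 difference from time 0 was 1.53 ± 0.24 (adjusted p = 0.000611). Rad21 read 722 and 914 at 72 h and 329 and 313 at time 0, a difference of 1.30 ± 0.17 (adjusted p = 7.27e-05). Ercc6l read 50.5 and 54.1 at 72 h and 15.9 and 8.89 at time 0, a difference of 1.28 ± 0.22 (adjusted p = 0.00126). Both genes were also above all other adult arrays on both 72 h arrays. Brca2 was the only other member with that pattern, which made 4 of 47 against a background of 2.91%, and 0 members had the opposite one (a background of 0.324%). It read 72.5 and 73.3 at 72 h and 65.3 and 44.5 at time 0, and its difference of 0.34 did not pass the test.

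All 18 proliferation markers were higher at 72 h than at time 0 as well, by 1.04 to 5.07 on the log2 scale with a median of 2.18. Mki67, the marker of cycling cells, read 196 and 181 at 72 h and 24.2 and 17.0 at time 0. At 48 h the 2 arrays disagreed, with Mki67 at 24.9 and 175, while Brca1 read 47.7 and 27.4 and Ercc6l 21.5 and 42.6. The summed level of the 7 blood progenitor and white cell markers was 730.0 and 730.2 at 72 h, the highest of the adult arrays, against 560.4 and 500.1 at time 0. Of the 7, only Ptprc, the pan-leukocyte antigen, was called at 72 h, with a log2 difference of 1.04, and of the 4 Kupffer cell markers Cd5l and Marco were higher, by 1.51 and 2.18, while Vsig4 (0.75) and Clec4f (-0.15) were not called. The Kupffer markers summed to 3746 and 2740 at 72 h and to 1560 and 1329 at time 0. The part of cycling or immune cells in the repair gene levels was not tested.

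**Figure D4:**
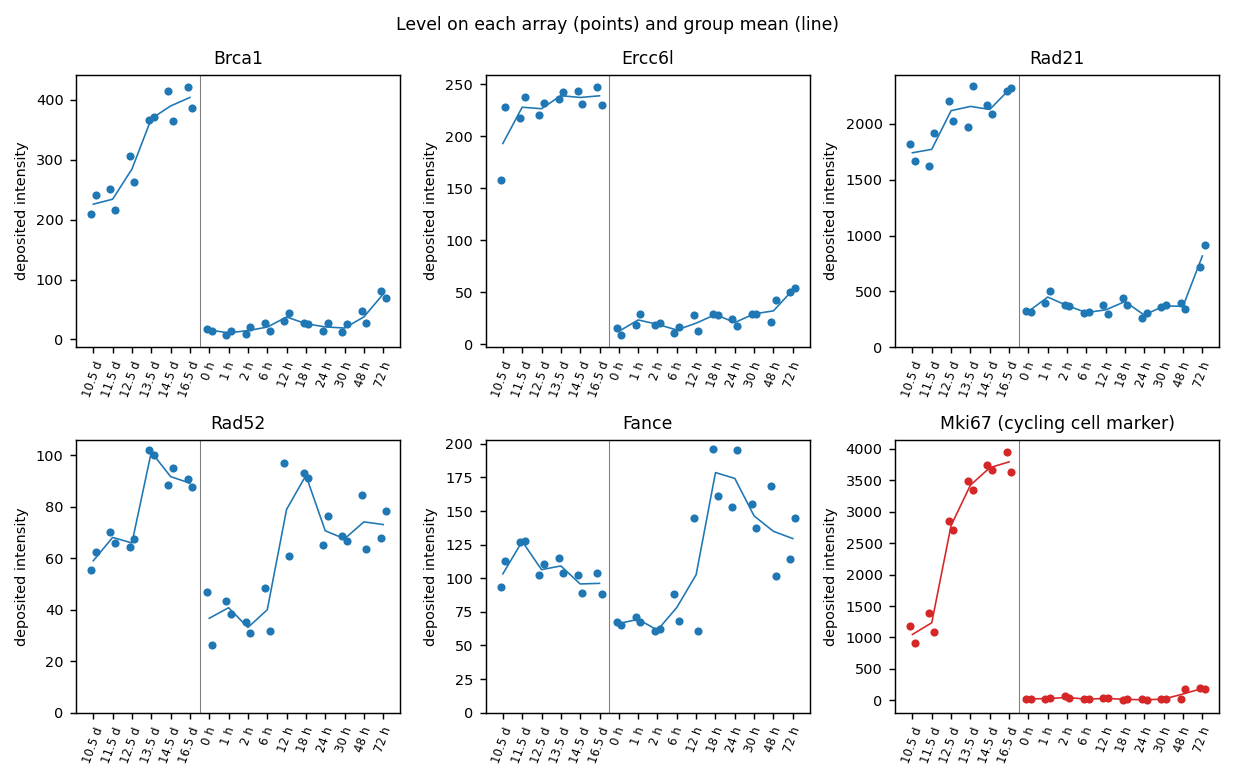
Intensity on each array (points) and group mean (line) for 5 repair genes and, in red, Mki67, with embryonic days on the left and hours after hepatectomy on the right of each panel. Brca1, Ercc6l and Rad21 rise at 72 h to levels below every embryonic array, while Rad52 and Fance are already above time 0 at 18 h.

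Rad52 and Fance followed another course, with higher levels before the proliferation markers changed. Rad52 read 46.9 and 26.4 on the 0 h arrays, 43.2 and 38.2 on the 1 h arrays, 35.1 and 31.0 on the 2 h arrays, 48.3 and 31.5 on the 6 h arrays, 97.0 and 60.8 on the 12 h arrays, 92.9 and 91.3 on the 18 h arrays, 64.9 and 76.2 on the 24 h arrays, 68.4 and 66.6 on the 30 h arrays, 84.5 and 63.6 on the 48 h arrays, and 67.8 and 78.2 on the 72 h arrays. From 12 h on, every array was above both time 0 arrays. The log2 difference from time 0 was 0.85 ± 0.19 at 12 h, 1.07 ± 0.19 at 18 h (adjusted p = 0.00129 by limma), 0.79 ± 0.19 at 48 h and 0.78 ± 0.19 at 72 h (adjusted p = 0.0263). The 72 h call was lost without the second time 0 array or either 72 h array, and the 48 h call in 23 of 44 alternative analyses. With the mean of both Rad52 probe sets the difference was -0.26 on the 12 h arrays, -0.55 on the 18 h arrays, 0.11 on the 48 h arrays and -0.34 on the 72 h arrays.

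Fance, a subunit that bridges the Fanconi core complex to its substrate, read 67.3 and 65.4 on the 0 h arrays, 71.3 and 67.6 on the 1 h arrays, 60.9 and 61.9 on the 2 h arrays, 88.1 and 68.4 on the 6 h arrays, 144.7 and 60.6 on the 12 h arrays, 196 and 161 on the 18 h arrays, 153 and 196 on the 24 h arrays, 155 and 138 on the 30 h arrays, 168 and 101 on the 48 h arrays, and 114 and 144.9 on the 72 h arrays. The 12 h arrays disagreed, and all arrays from 18 h on lay above time 0. The difference was 1.24 ± 0.25 at 18 h (adjusted p = 0.00317 by limma) and 1.20 ± 0.25 at 24 h (adjusted p = 0.0155). The 24 h call was lost without either time 0 array or the second 24 h array. The second Fance probe set, which was not used, read 46.9 and 42.1 at 72 h and 52.9 and 30.3 at time 0. With the mean of both Fance probe sets the difference was 0.61 at 18 h and 0.62 at 24 h. The 24 h call was lost in that setting.

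At 12 h 3 members were higher (6.38%, against a background of 4.23%) and 1 was lower (2.13%, against a background of 4.64%). Besides Rad52 these were Rad17, the clamp loader, and Xrcc1. Rad17 read 204 and 267 at 12 h and 117 and 82.2 at time 0, a difference of 1.13 ± 0.18 (adjusted p = 0.000348 by limma). Xrcc1 differed by 0.60 ± 0.18, and its call was lost without either time 0 array or the first 12 h array. The Rad52 call was lost without the second time 0 array or the first 12 h array. Msh6 was the lower one, at 33.2 and 17.8 at 12 h against 73.8 and 53.4 at time 0, a difference of -0.95 ± 0.20 (adjusted p = 0.00391). This call was lost without the first time 0 array or the second 12 h array.

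At 18 h 4 members were higher (8.51%, against a background of 4.47%) and 2 were lower (4.26%, against a background of 3.26%). The higher ones beside Fance and Rad52 were Ercc3, by 0.81 ± 0.19, and Rad23b, by 0.79 ± 0.24. The Ercc3 call was lost without the second time 0 array or the first 18 h array, and the Rad23b call in 26 of 44 alternative analyses. Fancb read 56.5 and 70.5 at 18 h and 148 and 157 at time 0, a difference of -1.09 ± 0.27 (adjusted p = 0.0161 by limma). Fancd2 read 106 and 95.0 at 18 h and 175 and 168 at time 0, a difference of -0.69 ± 0.16 (adjusted p = 0.0093). The Fancb call was lost without any 1 of these 4 arrays, and the Fancd2 call without the first time 0 array or the second 18 h array. With the mean of all probe sets both the Fancb and the Fancd2 call were lost, at -0.55 and -0.17. The second Fancb probe set had group means of 22.2 at time 0 and 22.3 at 18 h. Of the other Fancd2 probe sets, 1430916_at had 33.7 and 52.2, 1438339_at 10.5 and 8.34, and 1442092_at 3.27 and -9.57. The 18 proliferation markers had 0 calls at 18 h by limma, and their median log2 difference was -0.07.

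The remaining times gave at most 1 call each. Fancm read 161 and 112 at 1 h and 44.9 and 71.3 at time 0, the only member called at 1 h (a background of 0.401% higher and 0.0824% lower), with a difference of 1.05 ± 0.21 (adjusted p = 0.0224 by limma). That call was lost without the first array of either group. Fance was the only one at 24 h (a background of 0.643% higher and 0.605% lower) and Rad52 at 48 h (a background of 0.638% higher and 0.863% lower). At 2, 6 and 30 h limma called 0 members. At an unadjusted p under 0.05 it had 4, 4 and 9 members. These were 8.51%, 8.51% and 19.1% of the members, against 6.14%, 10.5% and 6.79% of all genes. Backgrounds for genes called higher at those times were 0.445%, 1.06% and 0.258%, and for genes called lower 0.126%, 1.06% and 0.0934%.

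Taking neighbouring times as phases, 0 members were called over 1 to 6 h (backgrounds of 0.726% higher and 0.253% lower). In that phase 5 members had an unadjusted p under 0.05 by limma (10.6%, against 7.71% of all genes). Over 12 to 30 h, Fance, Rad17 and Rad52 were higher (a background of 2.61%) and Fancb, Fancd2 and Msh6 lower (a background of 2.18%). Over 48 to 72 h, Brca1, Ercc6l, Fance, Rad21 and Rad52 were higher (a background of 2.01%) and none was lower (a background of 0.638%). With the mean of all probe sets the calls of Fancb, Fancd2 and Rad52 over 12 to 30 h were lost. So were those of Ercc6l, Fance, Rad21 and Rad52 over 48 to 72 h. Without the second time 0 array the count over 48 to 72 h was 1, in place of 5, and over 12 to 30 h it was 1, in place of 6.

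A further list held 77 repair and damage signalling genes with other names, of which 68 were measured. At 72 h 7 of them were higher than at time 0 (10.3%, against a background of 2.83%) and 0 lower (a background of 0.319%). Of the 68, 35 were above 0 in difference. Topbp1, an activator of the replication checkpoint, was higher by 1.73 ± 0.26, Chek1, the checkpoint kinase, by 1.83 ± 0.37, and Rpa1, of the single-strand binding protein, by 1.10 ± 0.23. Lig1, the replicative ligase, was higher by 1.01 ± 0.26, Usp1, the enzyme that removes ubiquitin from the Fanconi clamp, by 0.94 ± 0.20, Chek2 by 0.80 ± 0.19 and Atr by 0.66 ± 0.16. In embryonic liver 37 of the 68 were higher than at time 0 (54.4%, against a background of 30.9%) and 9 lower (13.2%, against a background of 24.8%). The median log2 difference was 0.83. Tipin, of the fork protection complex, differed by 4.11 ± 0.25 and Lig1 by 3.92 ± 0.20. Clspn, Ube2t and Bard1, which work with Chek1, the Fanconi ligase and Brca1, were lower, with log2 differences of -1.58 ± 0.26, -0.91 ± 0.16 and -0.78 ± 0.30. All values of this list come from the brightest probe set of each gene. Other probe sets of these genes were not examined, and they may read otherwise. The damage kinase Atm differed by -0.08 ± 0.15.

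The choice of probe set decided the reading of several members. When each of the 34958 single-gene probe sets was tested on its own, 54 of the 111 member probe sets were higher in embryonic liver than at time 0 (a background of 30.3%) and 13 were lower (a background of 21.8%). By this count 37 of the 47 members had at least 1 higher probe set, against a background of 38.5% of genes. This background is not like for like, because the count grows with the probe sets per gene. The 47 members had 111 probe sets, and all 18194 genes had 34958. With the mean of all probe sets of a gene, 20 of the 36 differences called against time 0 moved by over 1.5 times, among them Brca1 (2.15), Rad21 (1.41) and Xrcc6 (0.91). Brca1, Rad21 and Xrcc6 stayed called. The calls of Ercc4, Ercc5, Ercc6l2 (0.15), Fancb (-0.12), Fancm (0.13), Msh3, Rad23b and Rad51d (-0.20) were lost in that setting. Ercc8, Fancf, Rad50, Rad52 and Rad54l changed sign. In 9 members 2 probe sets were called in opposite directions, and in 4 the call came only from a probe set not used above. Rad54l was one of them. Its brightest probe set, 1453926_at, read 62.9 to 183 in embryonic liver and 224 and 214 at time 0. Its probe set 1450862_at read 205 to 302 in embryonic liver and 6.00 and 11.9 at time 0, with a log2 difference of 3.45 ± 0.15 (adjusted p = 2.81e-14 by limma). The other 2 probe sets of the gene were also higher, by 1.64 ± 0.21 and 2.07 ± 0.22.

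Rad51ap1, a partner of the recombinase, was not called against time 0 on its brightest probe set, with a difference of 0.47 ± 0.21. Its probe set 1417938_at read 207 to 404 in embryonic liver and 6.93 and 5.60 at time 0, a log2 difference of 3.99 ± 0.28. Both Rad54l and Rad51ap1 were also higher at 72 h on these probe sets. Rad54l 1450862_at read 39.7 and 50.6 at 72 h and 6.00 and 11.9 at time 0, a difference of 1.30 ± 0.19 (adjusted p = 0.000315 by limma). Rad51ap1 1417938_at read 52.3 and 42.6 at 72 h and 6.93 and 5.60 at time 0, a difference of 1.51 ± 0.37 (adjusted p = 0.0298). With them, 6 members and 8 probe sets were higher at 72 h (a background of 1.96% of probe sets) and 0 lower (a background of 0.255%). Of all genes, 3.09% had a probe set that was higher then, a share that also depends on the probe sets per gene.

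**Figure D5:**
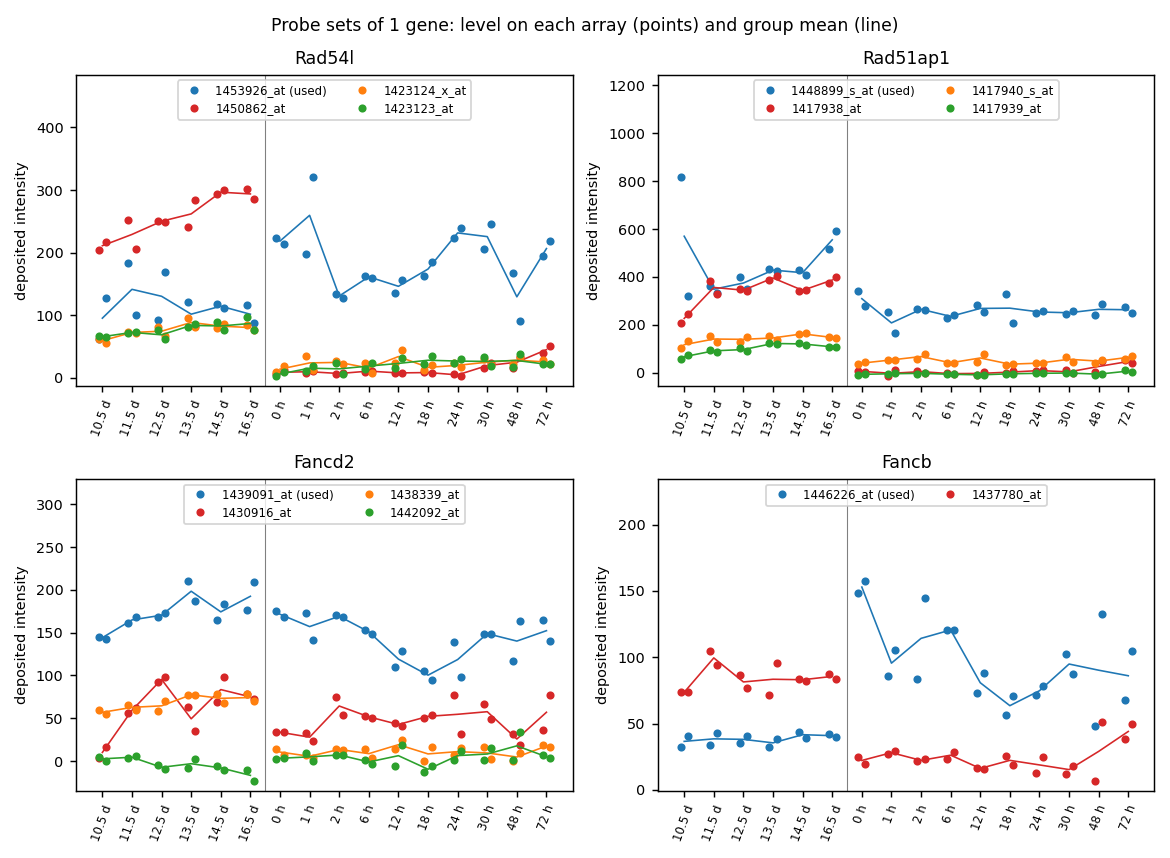
Intensity on each array (points) and group mean (line) for every single-gene probe set of 4 genes, with embryonic days on the left and hours after hepatectomy on the right. For Rad54l the brightest adult probe set (blue) is lower in the embryo, while the other 3, near the floor in adult liver, are higher there; Fancb has 2 probe sets that differ in opposite directions.

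Fancb 1437780_at read 71.5 to 104.7 in embryonic liver and 24.6 and 19.8 at time 0, a difference of 1.39 ± 0.23, against -1.63 on the brighter probe set. Fancd2 1438339_at read 54.7 to 78.4 in embryonic liver and 14.3 and 6.75 at time 0, a difference of 1.67 ± 0.23, against 0.01 on the brighter one. Brca1 agreed in direction over its 4 probe sets, which differed by 3.35, 2.58, 2.04 and 0.63 from time 0. At 72 h the same probe sets differed from time 0 by 1.53, 0.50, 0.93 and 0.21, and those at 0.50 and 0.21 were not called. In embryonic liver Ercc6l differed by 3.10 and 1.52 on its 2 probe sets. At 72 h these differed by 1.28 and 0.47, and the second was not called. For Rad21 the differences of embryonic liver from time 0 were 2.60, 1.54 and 0.10. The probe set with the last value, 1416162_at, read 740 and 677 at 72 h and 288 and 391 at time 0. Its group mean was higher still at 18 h, at 1051 (SD 469). Over the embryonic stages its means were 294 to 415, below the 72 h arrays.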

How the data were processed

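RNA of 32 pooled liver samples, 2 for each of 16 groups, was labelled with biotin from 6 microg and hybridised to Affymetrix mouse genome arrays, per the labels' protocols. The deposited values are intensities on a linear scale, 1 for each of 45101 probe sets. For the authors' software and normalization, nothing is given in the sources used here. The medians of the arrays were 69.7 to 79.5, and 2.54% to 4.02% of values were below 0 and were set to 0 before log2. For the embryonic arrays, the age and description fields repeat 1 text that contradicts the titles, so groups came from the titles, which match the source names. No batch is recorded, so batch and group cannot be told apart.

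Symbols came from the platform annotation. Of 35890 listed probe sets, 932 with several symbols were left out. The remaining 34958 gave 18194 genes, each by its probe set of highest mean. One limma model (R 4.3.3, limma 3.58.1) of 16 group means on log2(intensity + 16), with a variance trend, gave all tests. It was tested on simulated data. All 47 members are accounted for, and no filter on low values was used; values by array were to be given for the members with the largest called changes in the 72 h, embryonic and per-day comparisons, the brightest of each role and those called in none, and other genes were named only from the lists. Members and lists were chosen with earlier results of these data known. Replicate numbers were not used as pairs in this model. Same-numbered arrays of the 120 group pairs had a median correlation of deviations of -0.00596, with a range of -0.357 to 0.555, and 17 pairs exceeded 0.1. A median near 0 cannot tell whether some of the groups were paired. Alternatives changed the constant, filter, normalization, probe set choice, variance model, arrays fitted and replicate block, and left out each array in turn. Without 3 uneven arrays, without the 10.5 day stage, and each probe set tested singly were added after seeing the data.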

Additional observations from a re-analysis of the deposited data

Results flagged for a closer look

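Signals appeared in probe sets of the members that the gene-level comparisons did not use, each tested on its own by limma over 34958 probe sets and called at an adjusted p under 0.05. All values are log2 differences, for the 6 embryonic stages averaged, set against time 0, unless a time is named. For Rad54l, 1450862_at differed by 3.45 and by 1.30 at 72 h against time 0, 1423124_x_at by 1.64 and 1423123_at by 2.07. For Rad51ap1, 1417938_at differed by 3.99 and by 1.51 at 72 h against time 0, 1417940_s_at by 1.48 and 1417939_at by 2.85. For the Fanconi genes, the differences were 1.67 for Fancd2 1438339_at, 1.39 for Fancb 1437780_at, 0.40 for Fancg 1420960_at and -0.65 for Fancm 1457730_at. For the excision genes they were -1.44 for Ercc1 1445266_at, -0.86 for Ercc6l2 1453985_at, 0.77 for Ercc8 1432249_a_at and 0.62 for Ercc8 1429439_at. For the remaining recombination genes they were -1.03 for Rad50 1425939_at, 0.58 for Rad54l2 1454910_at, 1.15 for Xrcc3 1437623_x_at and -2.17 for Rad52 1426296_at. The last of these read below 0 on every embryonic array, from -103.8 to -33.0. Groups of 2 arrays were too small for a search for single outlying arrays.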

How the results depend on the processing

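Of the calls, 20 of 36 in embryonic liver against time 0, 17 of 31 against 72 h and 4 of 11 over the stages were made under every alternative run, and 0 of the calls at single times or phases after hepatectomy were. Restricting each fit to the arrays compared gave 0 members at 1, 12, 18, 24, 48 and 72 h and over 48 to 72 h, 1 over 12 to 30 h, and 5 in the F test over the times; such fits have fewer samples. The mean of all probe sets gave 0 members at 1, 24 and 48 h, 3 at 18 h, 3 over 12 to 30 h and 2 over 48 to 72 h. Array weights gave 1 at 6 h, 1 at 30 h, 0 at 48 h and 2 over 48 to 72 h. Either filter on low values gave 1 at 6 h, and quantile normalization gave 2 at 24 h and 5 in the F test over the stages. Without 3 uneven arrays (the second of 48 h, the second of 12 h and the first of 10.5 days, chosen after seeing the data) the counts were 1 for 6 h, 9 for 12 h, 10 for 18 h, 3 for 24 h, 2 for 30 h, 3 for 48 h and 5 in the F test over the stages. Without the 10.5 day stage 5 members changed per day and 3 in the F test. All counts under alternatives are of members only. The share of all genes called under each alternative is not given, so a moved count is not a result about the members.

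The mean of all probe sets reversed Rad52 at 12 h (-0.26), 18 h (-0.55), 72 h (-0.34), 12 to 30 h (-0.41), 48 to 72 h (-0.11) and in the embryo against time 0 (-0.65). It also reversed Fancd2 over 12 to 30 h (0.03), Ercc8 (0.33), Fancf (-0.12), Rad50 (-0.14) and Rad54l (1.57) in the embryo against time 0, and Rad50 (-0.19) and Rad54l (0.95) against 72 h. With ambiguous probe sets left out Rad23b was -0.18 against time 0 and -0.35 against 72 h. The cause was not tested.

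Leaving out 1 array at a time gave 0 to 2 members for 1 h, 0 to 1 for each of 2, 6 and 30 h, 2 to 8 for 12 h, 3 to 8 for 18 h, 0 to 3 for 24 h, 0 to 7 for 48 h and 3 to 6 for 72 h. It gave 0 to 1 over 1 to 6 h, 1 to 7 over 12 to 30 h, 1 to 6 over 48 to 72 h, 30 to 38 in the embryo against time 0, 22 to 32 against 72 h, 6 to 12 over the stages, 10 to 19 in the F test over times and 4 to 11 over stages. The 7 calls at 48 h came without its first array, the 6 over the stages without the second 16.5 day array and the 4 in the F test without the first 10.5 day array. With a replicate block the counts were 4 members at 72 h, 37 in the embryo against time 0 and 11 over the stages, and no count moved by over 1.5 times. With 2 pools a group, precision is limited by the number of arrays, and dim members near the floor show compressed changes.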
